A study of Oncorhynchus mykiss with 24 samples.

Results

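The spliceosome and splicing factor genes were taken as every gene of either parental genome whose symbol begins with sf3a, sf3b, snrnp, snrp, srsf, prpf, u2af, or lsm followed by a digit. These 195 genes, of 32765 in the count table, comprise 103 of the maternal species Oncorhynchus mykiss (rainbow trout) with 62 symbols, and 92 of the paternal species Salvelinus fontinalis (brook trout) with 53 symbols. All 195 passed the filter on low counts. They were sorted into 10 groups by role. In O. mykiss these are the Sm core (12 genes), U1 (7), U2 (16), U2AF (3), the LSm ring of U6 (4), the U4/U6.U5 tri-snRNP (17), the Prp19 complex with the factors of the second splicing step (5), the minor spliceosome (3), the SR proteins (28) and other LSm proteins (8). The last group (lsm10, lsm11, lsm12b, lsm14aa and lsm14b) matches the naming rule but does not belong to the spliceosome.

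The embryos were hybrids, made from O. mykiss eggs and S. fontinalis sperm. Stages are named by hours (hpf) or days (dpf) after fertilization. RNA was profiled at 0 hpf and 1 hpf, at 1 dpf, when there are roughly 32 to 64 cells, and at 3 dpf, the mid-blastula of around 1000 cells. At each stage the egg or embryo was divided along the animal-vegetal axis into section A, the animal part, and section B, the vegetal part. The count table held 2 libraries per section at 0 hpf and 3 dpf, and 3 at 1 hpf and 1 dpf. All samples came from O. mykiss eggs, with no treatment given. The labels call the 0 hpf samples both non-fertilized and freshly fertilized eggs, and the 1 hpf samples both 1-cell and early cleavage embryos, so whether the first stage holds sperm is not settled by them.

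Splicing removes introns from pre-mRNA. Small nuclear RNAs bound by a ring of Sm proteins, or of LSm proteins in the case of U6, form the snRNPs. The U1 snRNP binds the 5′ splice site, U2AF marks the 3′ splice site, and the U2 snRNP with its SF3A and SF3B proteins binds the branch site. The tri-snRNP then joins, and the Prp19 complex helps to activate the assembled spliceosome. SR proteins bind exons and help to choose splice sites, and a separate minor spliceosome removes a rare class of introns. An egg carries maternal mRNA and protein, and in fish the embryo's own genome begins to be transcribed in bulk around the mid-blastula stage.

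Library totals ran from 5011274 to 9986001 counts. Levels are CPM, counts set against the library total and scaled with edgeR's TMM factors, and they are not compared between genes, because gene lengths were not available. A gene was called higher or lower when edgeR's quasi-likelihood test gave a Benjamini-Hochberg adjusted p under 0.05 over all 32502 tested genes, and fold changes are log2. Genes named for large changes were picked from called genes whose libraries did not overlap between the compared groups. A lack of overlap in them was thus set by the choice and adds no support. The section labels held against known vegetal RNAs: of 19 O. mykiss genes on that list, 16 were called lower in section A at 0 hpf and 17 at each later stage, and their summed level was 799 to 1520 CPM in section A against 3850 to 10500 CPM in section B. Of the other marker lists, none of the blood symbols was matched in the table, and the O. mykiss sperm marker was between 2.23 and 13.3 CPM. The 1 matched liver and yolk gene of O. mykiss had 5.75 to 17 CPM in section A and 16.2 to 36.8 CPM in section B. At every stage its section A libraries lay below those of section B. Of 10 ovarian follicle symbols 1 was matched, fshr, the receptor of follicle stimulating hormone. Its O. mykiss gene had 2.31 to 5.94 CPM in section A at 3 dpf, against 0 to 3.74 CPM in the other libraries, and its S. fontinalis gene had 282 to 355 CPM there, against 0 to 0.126 CPM elsewhere. Both were called higher in section A at 3 dpf, against section B and against 1 dpf, as were many members. The part of these markers in the results was not tested. These are bulk libraries, so fewer cells of a type and less RNA per cell cannot be told apart.

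The members as a whole stood highest in the animal section at 3 dpf. O. mykiss members made up 1.247% and 1.006% of all O. mykiss counts in the 2 section A libraries of 3 dpf, against 0.491% to 0.644% in the other 18 libraries. Their summed level was 10423 and 8207 CPM there, against 4957 to 6007 CPM elsewhere. Both animal libraries of 3 dpf thus lay above all others. The S. fontinalis members made up 1.88% and 1.581% of all S. fontinalis counts in the same 2 libraries, against 0.459% to 0.981% elsewhere. All S. fontinalis rows together held only 0.927% to 1.08% of the counts of those other libraries, and the source of these counts was not tested. The S. fontinalis percentages thus cannot be read as a rise among RNAs of the paternal genome.

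In 6 of the 10 roles both animal libraries of 3 dpf lay above every other library. U2AF stood farthest above the other libraries, with summed levels of 141 and 113 CPM in section A at 3 dpf against 22.5 to 49.2 CPM in the other 18. The U1 group had 738 and 679 CPM there, against 290 to 407 CPM elsewhere. The U2 group had 1465 and 1338 CPM, against 470 to 863 CPM. The tri-snRNP had 3060 and 2504 CPM, against 1143 to 1531 CPM, and the Sm core and the Prp19 group were likewise above every other library. The SR proteins had 3253 and 2169 CPM, against 1426 to 2334 CPM elsewhere, so 1 of the 2 libraries fell inside the range of the others. The LSm ring of U6 (55 and 23.9 CPM, against 20.2 to 41.5) and the other LSm proteins (518 and 429 CPM, against 461 to 724) overlapped the other libraries. The 3 minor spliceosome genes lay below them, with 20.4 and 25.4 CPM in section A at 3 dpf against 27.3 to 47.4 CPM. Of these 3 only snrnp48 was called lower there than in section B. A separate list of 9 minor spliceosome genes outside the naming rule summed to 197 to 222 CPM there, against 134 to 202 CPM elsewhere. The only genes of that list called higher there than in section A at 1 dpf were copies of the helicase gene dhx15. The sums are relative to all counts of a library, and were not remade with factors from O. mykiss genes alone.

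**Figure D1:**
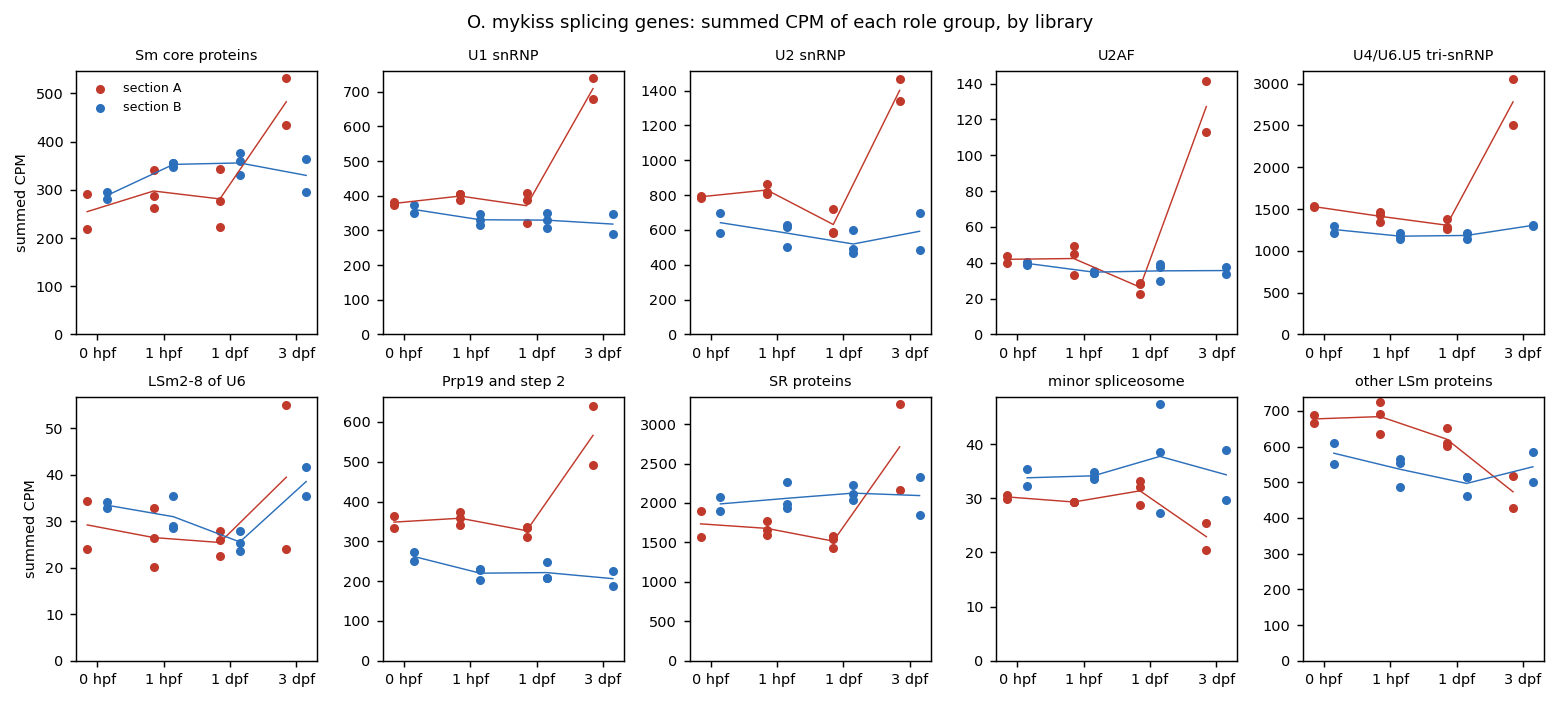
Summed CPM of the O. mykiss genes of each of the 10 role groups in every library, by stage from 0 hpf to 3 dpf, with section A in red left of section B in blue; points are libraries and lines join the means. Both section A libraries of 3 dpf lie above all others for U1, U2, U2AF, the Sm core, the tri-snRNP and the Prp19 group. They lie below all others for the 3 minor spliceosome genes (20.4 and 25.4 CPM), of which 1 was called lower there than in section B.

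Few members were called between the sections at 0 hpf, with a higher count near the share of all O. mykiss genes and a lower count not above it. Of the O. mykiss members 2 were called higher in section A (1.45% of all O. mykiss genes were) and 2 lower (3.96%). The higher genes were sf3b1 (LOC110501835, 0.84 ± 0.22, adjusted p = 0.03706), the SF3B subunit that clamps the branch site, and lsm14b (0.58 ± 0.16, adjusted p = 0.04735). The lower genes were prpf4bb (LOC110489887, -1.20 ± 0.29, adjusted p = 0.02164), a kinase that acts on the tri-snRNP, and srsf3a (LOC110528326, -1.11 ± 0.29, adjusted p = 0.03491), an SR protein; here and below ± is the standard error of the log2 fold change. With 2 libraries per section, each of these 4 calls was lost without section A replicate 1 (adjusted p 0.3307 to 0.495), without section A replicate 2 (0.08966 to 0.1405) and without section B replicate 1 (0.2321 to 0.7714). The tri-snRNP genes that led later were not called: snrnp200 (LOC110525610) had 80.5 and 76.6 CPM in section A at 0 hpf, against 12.3 and 42.1 CPM in section B (1.52 ± 0.59, adjusted p = 0.2184).

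At 1 hpf and 1 dpf most called SR genes were lower in the animal section and most called U1 genes were higher there. At 1 hpf 18 O. mykiss members were called higher in section A (12.5% of all O. mykiss genes were) and 10 lower (11.8%), and at 1 dpf 18 were higher (14.3%) and 24 lower (13.8%). Of the 28 SR genes, 2 were higher and 8 lower at 1 hpf, and 2 were higher and 15 lower at 1 dpf, with medians of -0.32 and -0.57. Of the 7 U1 genes 4 were higher at both stages, with 0 lower at 1 hpf and 1 lower at 1 dpf. The tri-snRNP had 4 of 17 higher and 1 lower at 1 hpf, and 5 higher and 3 lower at 1 dpf. The U2 group had 4 of 16 higher and 1 lower, then 3 higher and 2 lower. Over all O. mykiss members the median was 0.08 at 1 hpf and 0.05 at 1 dpf, beside -0.03 and -0.01 over all O. mykiss genes. With the replicate number as a block the lower count at 1 hpf was 18. It was 5 without section B replicate 1 and 4 without section A replicate 3. At 1 dpf the lower count was 14 without section A replicate 1, 15 without section A replicate 3 and 11 without section B replicate 1.

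Among the called members, genes of the tri-snRNP had the largest animal excess at both stages. The gene snrnp200 (LOC110525610), which encodes the helicase that unwinds U4 from U6, had 54.0, 55.5 and 84.2 CPM in section A at 1 dpf, against 5.22, 4.135 and 13.2 CPM in section B. The lowest animal library lay several-fold above the highest vegetal one. The fold change was 3.09 ± 0.53 at 1 dpf (adjusted p = 0.0003375) and 2.98 ± 0.53 at 1 hpf (adjusted p = 0.0004947). Its second copy (LOC110535976) was higher by 1.97 at 1 hpf and 2.00 at 1 dpf. The gene prpf8 (LOC110507678), the scaffold around the catalytic centre, had 166, 181 and 190 CPM in section A at 1 dpf, against 33.6, 25.6 and 51.4 CPM in section B, again without overlap. It was higher by 2.66 ± 0.41 at 1 hpf (adjusted p = 0.0001519) and 2.28 ± 0.41 at 1 dpf (adjusted p = 0.0005091), and its copy with the symbol prpf8 by 1.65 and 1.42.

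Among the early snRNPs, prpf39 (LOC110522470), a homolog of a protein of the yeast U1 snRNP, was higher in section A at 1 dpf by 1.22 ± 0.28 (adjusted p = 0.004208). The SF3B subunits sf3b1 (LOC110520240) and sf3b2 (LOC110531585) were higher at 1 hpf by 1.23 ± 0.23 and 1.17 ± 0.28, with adjusted p of 0.0006991 and 0.006165. The SR protein gene srsf3b departed from its group, being higher at 1 hpf by 1.89 ± 0.29 (adjusted p = 0.0001451).

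The vegetal side held SR proteins and a kinase. The gene srsf2a, an SR protein that binds exonic enhancers, had 16.9, 16.6 and 12.1 CPM in section A at 1 dpf, against 49.7, 62.5 and 34.0 CPM in section B. All animal libraries lay below all vegetal ones. The fold change was -1.36 ± 0.24 at 1 hpf (adjusted p = 0.0005399) and -1.68 ± 0.25 at 1 dpf (adjusted p = 7.933e-05). For prpf4bb (LOC110489887) section A had 87.0, 78.3 and 85.7 CPM at 1 dpf, against 233.0, 306.1 and 157 CPM in section B, again without overlap. Its fold change was -1.58 ± 0.24 at 1 hpf and -1.47 ± 0.24 at 1 dpf, with adjusted p of 0.0001113 and 0.000184. Others lower at 1 dpf were srsf6a (LOC110492341, -1.18), srsf5a (-0.99), srsf1b (LOC110503923, -0.99) and srsf3a (LOC110528326, -0.93). Outside the SR group, sf3b6, the SF3B subunit next to the branch point adenosine, had a fold change of -1.25 ± 0.28 at 1 dpf (adjusted p = 0.003071). The U1 protein gene snrpa (LOC110503553) had a fold change of -0.99 ± 0.23 there (adjusted p = 0.004225).

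**Figure D2:**
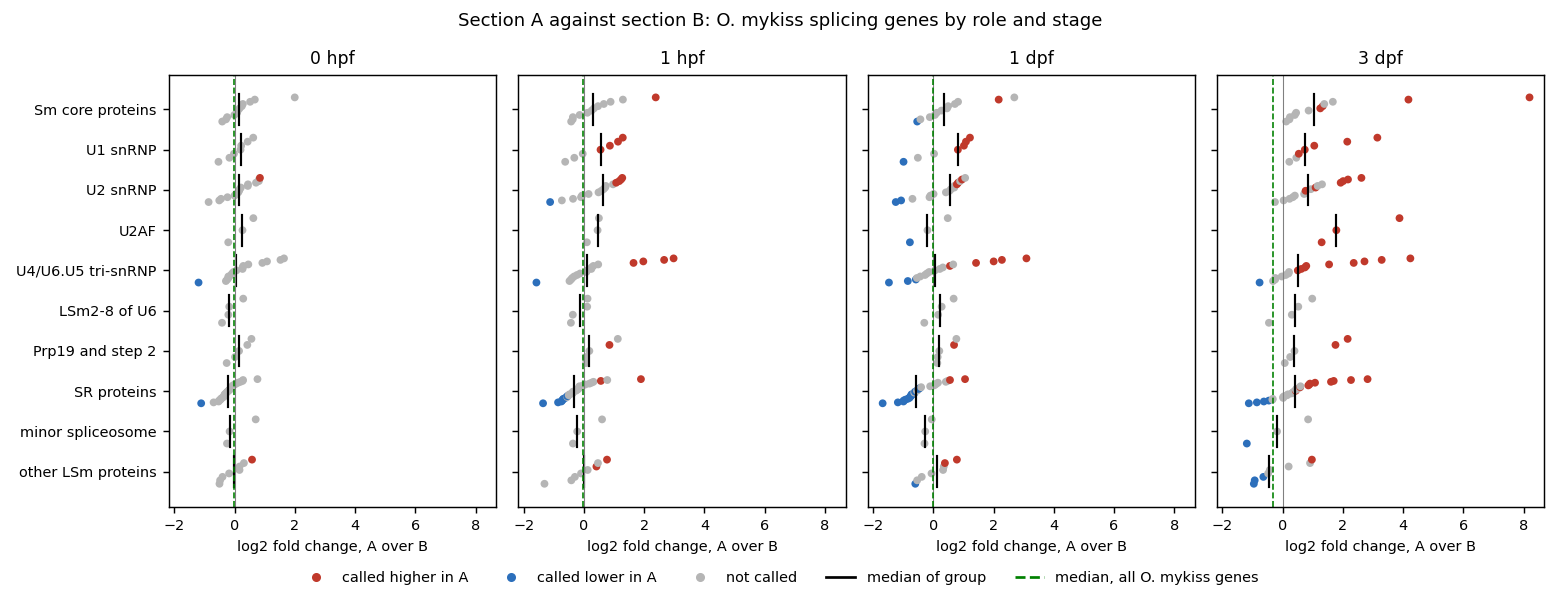
Log2 fold change of section A over section B for each O. mykiss member, grouped by role, in 1 panel per stage; red points were called higher, blue lower and grey neither, black ticks are group medians and the green dashed line is the median of all O. mykiss genes. The SR proteins sit below the line at 1 hpf and 1 dpf (medians -0.32 and -0.57) and above it at 3 dpf (0.40).

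Within a section no change was called up to 1 dpf. Against 0 hpf, 0 O. mykiss members were called at 1 hpf in section A (0% of all O. mykiss genes were) and 0 in section B (0.0044%), with 1 and 13 members at an unadjusted p under 0.05, and DESeq2 called 0 and 5. Over all 22724 tested O. mykiss genes DESeq2 called 197 higher and 106 lower in section A, and 682 higher and 572 lower in section B. Against 1 hpf, 0 were called at 1 dpf in section A (0%) and 0 in section B (0%), with 15 and 2 members at an unadjusted p under 0.05, and DESeq2 called 1 and 0. The median member change in section A between these stages was -0.16, beside 0.01 over all O. mykiss genes.

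In section A many splicing genes rose between 1 dpf and 3 dpf. Of the 103 O. mykiss members, 54 were called higher at 3 dpf (11.7% of all O. mykiss genes were) and 5 lower (23.2%). The median member change was 0.78, against -0.33 over all O. mykiss genes. S. fontinalis rows took up 24.03% and 22.45% of the counts in the 2 section A libraries of 3 dpf, against 0.927% to 1.08% elsewhere. Levels here are relative to all counts of a library. With factors from O. mykiss genes alone the median over all O. mykiss genes was -0.01, and 68 members were called higher and 4 lower. With those factors 3889 of all 22724 tested O. mykiss genes were higher and 2774 lower, against 2656 and 5262 with the main factors. The follicle marker fshr moved with them, in both species, and its part was not tested. Without replicate 1 of section A at 3 dpf, 33 members were called higher and 3 lower.

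By role, the calls covered 22 of 28 SR genes higher and 1 lower, 11 of 17 tri-snRNP genes, 7 of 16 U2 genes, 5 of 7 U1 genes, 4 of 12 Sm genes, all 3 U2AF genes and 2 of 5 genes of the Prp19 group, with 0 lower in these last 6 groups. None of the 4 LSm genes of U6 was called. Of the 3 minor spliceosome genes 1 was lower, and of the 8 other LSm genes 3 were lower, with 0 higher in both groups.

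U2AF showed the largest group median, 2.43. The small subunit gene u2af1 (LOC110502024), whose protein recognises the AG at the intron's end, had 32.9 and 18.3 CPM in section A at 3 dpf, against 3.096, 2.69 and 4.082 CPM at 1 dpf. The large subunit gene u2af2a (LOC110508966), whose protein binds the pyrimidine tract, had 66.1 and 60.9 CPM at 3 dpf, against 9.148, 12.6 and 13.5 CPM at 1 dpf. Neither gene's libraries overlapped between the stages, which the choice of named genes required. The fold changes were 2.95 ± 0.51 for u2af1 (adjusted p = 0.0001553) and 2.43 ± 0.25 for u2af2a (adjusted p = 9.631e-07). The other u2af2a copy was higher by 1.75 ± 0.23 (adjusted p = 1.477e-05).

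Among the SR proteins, srsf6b (LOC110532062) had 80.6 and 53.5 CPM in section A at 3 dpf, against 4.644, 10.8 and 11.5 CPM at 1 dpf, a fold change of 2.90 ± 0.41 (adjusted p = 2.556e-05). For srsf2a the values were 94.1 and 78.1 CPM at 3 dpf, against 16.9, 16.6 and 12.1 CPM at 1 dpf, and 2.50 ± 0.27 (adjusted p = 1.665e-06). In both genes every 3 dpf library was above every 1 dpf library, which the choice of named genes required.

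The U1-associated prpf39 (LOC110522470) had 153 and 165 CPM in section A at 3 dpf, against 34.9, 28.9 and 23.3 CPM at 1 dpf, and rose by 2.45 ± 0.30 (adjusted p = 5.779e-06). The SF3B subunit gene sf3b4 (LOC110488213) rose by 1.80 ± 0.34 (adjusted p = 0.0003245), with 37.7 and 24.97 CPM against 7.318, 11.98 and 7.669 CPM. The helicase gene snrnp200 (LOC110525610), already animal, had 228 and 232 CPM at 3 dpf and rose by 1.83 ± 0.52 (adjusted p = 0.006005). In all 3 genes the stages did not overlap, again by the choice of named genes. The Sm protein gene snrpe (LOC110494395) had 6.498 and 2.728 CPM at 3 dpf and at most 0.1407 CPM at 1 dpf, and it was called higher (adjusted p = 0.001975) from very few counts. Whether this gene passed the filter on low counts only through section A at 3 dpf was not checked, so its call adds no support.

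The same comparison in section B gave no calls. Of the 103 members 0 were called higher (0% of all O. mykiss genes were) and 0 lower (0%), 10 had an unadjusted p under 0.05, and DESeq2 called 1. Over all O. mykiss genes DESeq2 called 32 higher and 38 lower. The members' fold changes of 3 dpf over 1 dpf lay between -1.05 and 0.79. In this section u2af2a (LOC110508966) had 17.9 and 19.0 CPM at 3 dpf against 22.8, 23.4 and 14.2 CPM at 1 dpf, with overlap.

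**Figure D3:**
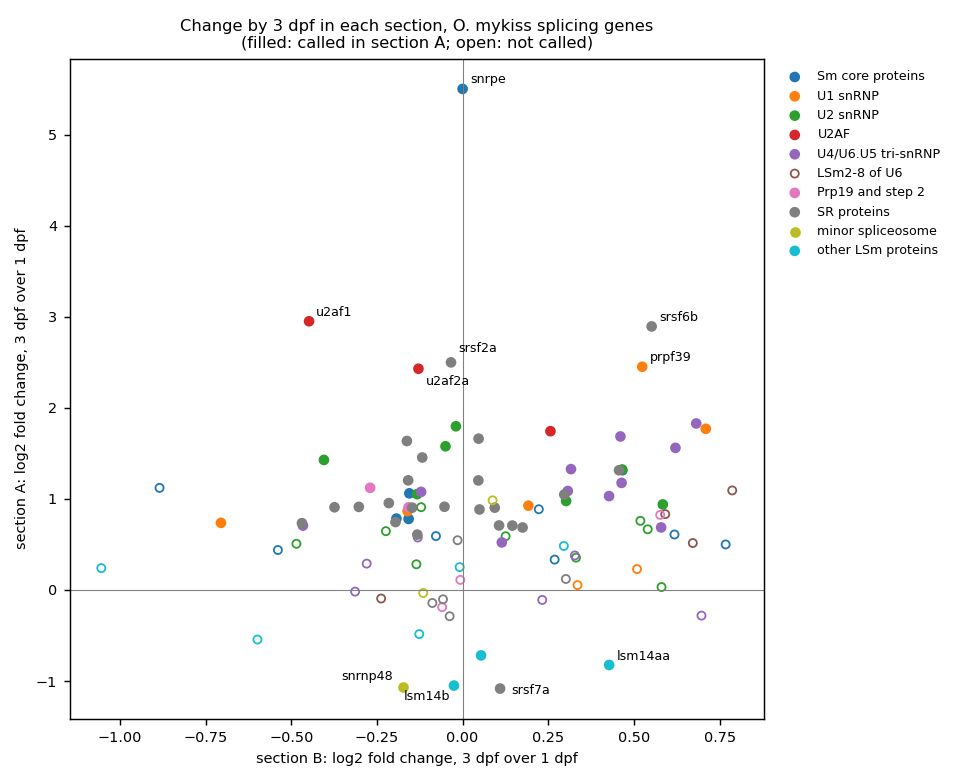
Log2 fold change of 3 dpf over 1 dpf for each O. mykiss member, in section A on the vertical axis and section B on the horizontal axis; filled points were called in section A. Section B values stay between -1.05 and 0.79, while u2af1, u2af2a, srsf6b, srsf2a and prpf39 lie above 2.4 in section A.

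At 3 dpf the members' section difference lay mostly on the animal side. Of the 103 O. mykiss members 40 were called higher in section A (15.2% of all O. mykiss genes were) and 9 lower (27.1%), and the median was 0.52 against -0.33 over all O. mykiss genes. The counts were 58 and 5 with factors from O. mykiss genes alone, and 59 and 6 with DESeq2. Over all O. mykiss genes they were 3461 and 6161 in the main test. They were 4733 and 4176 with those factors, and 4742 and 4710 with DESeq2. The called higher genes comprised 10 SR, 9 tri-snRNP, 6 U2, 5 U1, 4 Sm, 3 U2AF, 2 Prp19 group and 1 other LSm genes, with fold changes from 0.44 to 4.24 and a median of 1.58, snrpe (LOC110494395) aside in the range because its vegetal libraries were at 0. These 3 dpf libraries also enter the comparison with 1 dpf, so the counts are not independent.

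The tri-snRNP genes snrnp200 and prpf8 stood far apart between the sections. For snrnp200 (LOC110525610) section A had 228 and 232 CPM, against 3.28 and 20.8 CPM in section B, a fold change of 4.24 ± 0.67 (adjusted p = 6.665e-05). For prpf8 (LOC110507678) section A had 469 and 429 CPM, against 19.1 and 72.5 CPM in section B, and 3.29 ± 0.52 (adjusted p = 7.109e-05). The vegetal replicates of both genes differed from each other several-fold, and neither reached the animal values. The second copies, snrnp200 (LOC110535976) and the prpf8 gene without a LOC number, were higher by 2.72 ± 0.58 and 2.36 ± 0.45.

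In the 3′ splice site and branch site factors, u2af1 had 32.9 and 18.3 CPM in section A, against 1.093 and 2.332 CPM in section B, and 3.88 ± 0.64 (adjusted p = 9.943e-05). The gene sf3b1 (LOC110501835) had 243 and 266 CPM in section A, against 42.1 and 40.8 CPM in section B, and 2.62 ± 0.23 (adjusted p = 4.254e-07). Replicates of sf3b1 agreed closely in both sections. The U1-associated prpf39 (LOC110522470) had 153 and 165 CPM, against 11.1 and 24.7 CPM, and 3.15 ± 0.36 (adjusted p = 3.403e-06). Among the SR proteins srsf6b (LOC110532062) led, with 80.6 and 53.5 CPM against 7.106 and 11.8 CPM, and 2.82 ± 0.48 (adjusted p = 0.0001399).

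Of the Sm genes, snrpd1 (LOC110487904) had 9.469 and 6.505 CPM in section A and 0 and 0.8328 CPM in section B (adjusted p = 0.00215). For snrpe (LOC110494395) section B was at 0 counts in both libraries, so section A was at least 8.82-fold higher, against a floor of 3 counts per library. The limit set by the filter on low counts holds for this gene here too. Of the ubiquitin ligase of the Prp19 complex, the copies LOC110504917 and LOC110488721 of prpf19 were higher by 1.76 ± 0.18 (adjusted p = 1.352e-06) and 2.16 ± 0.54 (adjusted p = 0.002717), while LOC110497435 (0.07) and LOC110534444 (0.39) were not called. Nor were the LSm genes of the U6 ring, with fold changes of -0.45 for lsm3, 0.31 and 0.52 for the lsm7 copies and 0.98 for lsm4 (LOC110492606), or the minor spliceosome genes snrnp35 (-0.19) and snrnp25 (0.85).

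A few members went the other way in the animal section. The lsm14b gene, whose protein holds mRNA silent in cytoplasmic granules, had 66.5 and 75.8 CPM in section A at 3 dpf, against 142, 143 and 157 CPM at 1 dpf, and fell by 1.05 ± 0.15 (adjusted p = 2.677e-05). Its relative lsm14aa had 103 and 74.3 CPM, against 149, 176 and 145 CPM, and fell by 0.82 ± 0.20 (adjusted p = 0.001851). The SR gene srsf7a (LOC110503706) had 15.2 and 18.9 CPM, against 34.8, 33.9 and 39.7 CPM, and fell by 1.08 ± 0.24 (adjusted p = 0.001175). In each of these genes both 3 dpf libraries lay below all 1 dpf libraries, again by the choice of named genes. The minor spliceosome gene snrnp48, a U11/U12 protein that reads the 5′ splice site, fell by 1.07 ± 0.30 (adjusted p = 0.005271; 0.07572 without section A replicate 1 of 3 dpf). The copy lsm14b (LOC110492393) fell by 0.72 ± 0.18 (adjusted p = 0.002226; 0.06222 with factors from O. mykiss genes alone and 0.06414 without that replicate).

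Against section B at 3 dpf, the 9 lower members were snrnp48 (-1.19), srsf7a (LOC110503706, -1.12), lsm12b (LOC110502960, -0.96), lsm14aa (-0.93), srsf9 (LOC110525744, -0.86), prpf4bb (LOC110489887, -0.76), lsm14b (-0.64), srsf11 (-0.62) and srsf9 (LOC110537166, -0.46). With factors from O. mykiss genes alone the adjusted p was 0.2091 for prpf4bb, 0.5626 for srsf9 (LOC110537166), 0.09508 for lsm14b and 0.1913 for srsf11. A fit to the 3 dpf libraries alone called none of the 9. Without section A replicate 1 the adjusted p of snrnp48 was 0.05134, and without section B replicate 2 it was 0.05614; that of srsf9 (LOC110525744) was 0.05005 without section B replicate 1. Without section B replicate 1 it was 0.3334 for prpf4bb and 0.219 for srsf9 (LOC110537166), and without section A replicate 2 it was 0.2347 and 0.2906.

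Whether the section difference itself changed between 1 dpf and 3 dpf was tested by an interaction term. It grew toward the animal side for 29 members (4.72% of all O. mykiss genes) and toward the vegetal side for 4 (10.9%), with a median of 0.74 against -0.31 over all O. mykiss genes. The 29 held 14 SR, 4 tri-snRNP, 3 U1, 3 U2, 3 U2AF, 1 Sm and 1 Prp19 group genes. With factors from O. mykiss genes alone the counts were 41 and 2, and DESeq2 gave 48 and 3. Over all O. mykiss genes they were 1072 and 2470 in the main test. They were 1623 and 1052 with those factors, and 2151 and 1780 with DESeq2. Without section A replicate 1 of 3 dpf 15 were higher and 2 lower, and without section B replicate 1 of 3 dpf 2 were lower.

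Genes with a called interaction differed in the side they had at 1 dpf. The srsf2a gene was lower in section A at 1 dpf (-1.68) and higher there at 3 dpf, with 94.1 and 78.1 CPM in section A against 59.0 and 36.3 CPM in section B, and the difference changed by 2.53 ± 0.39 (adjusted p = 0.0003521). For u2af1 it changed by 3.40 ± 0.78 (adjusted p = 0.005934) and for u2af2a (LOC110508966) by 2.56 ± 0.36 (adjusted p = 0.000189). This u2af2a copy, like srsf2a, was called lower in section A at 1 dpf and higher there at 3 dpf. The genes prpf39 (LOC110522470, 1.93) and sf3b1 (LOC110501835, 1.83) were called higher in section A at both stages. On the vegetal side were lsm14aa (-1.25 ± 0.27, adjusted p = 0.004105) and lsm14b (-1.02 ± 0.21, adjusted p = 0.002493), both of which had higher levels in section A than in section B in every pair of means up to 1 dpf.

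**Figure D4:**
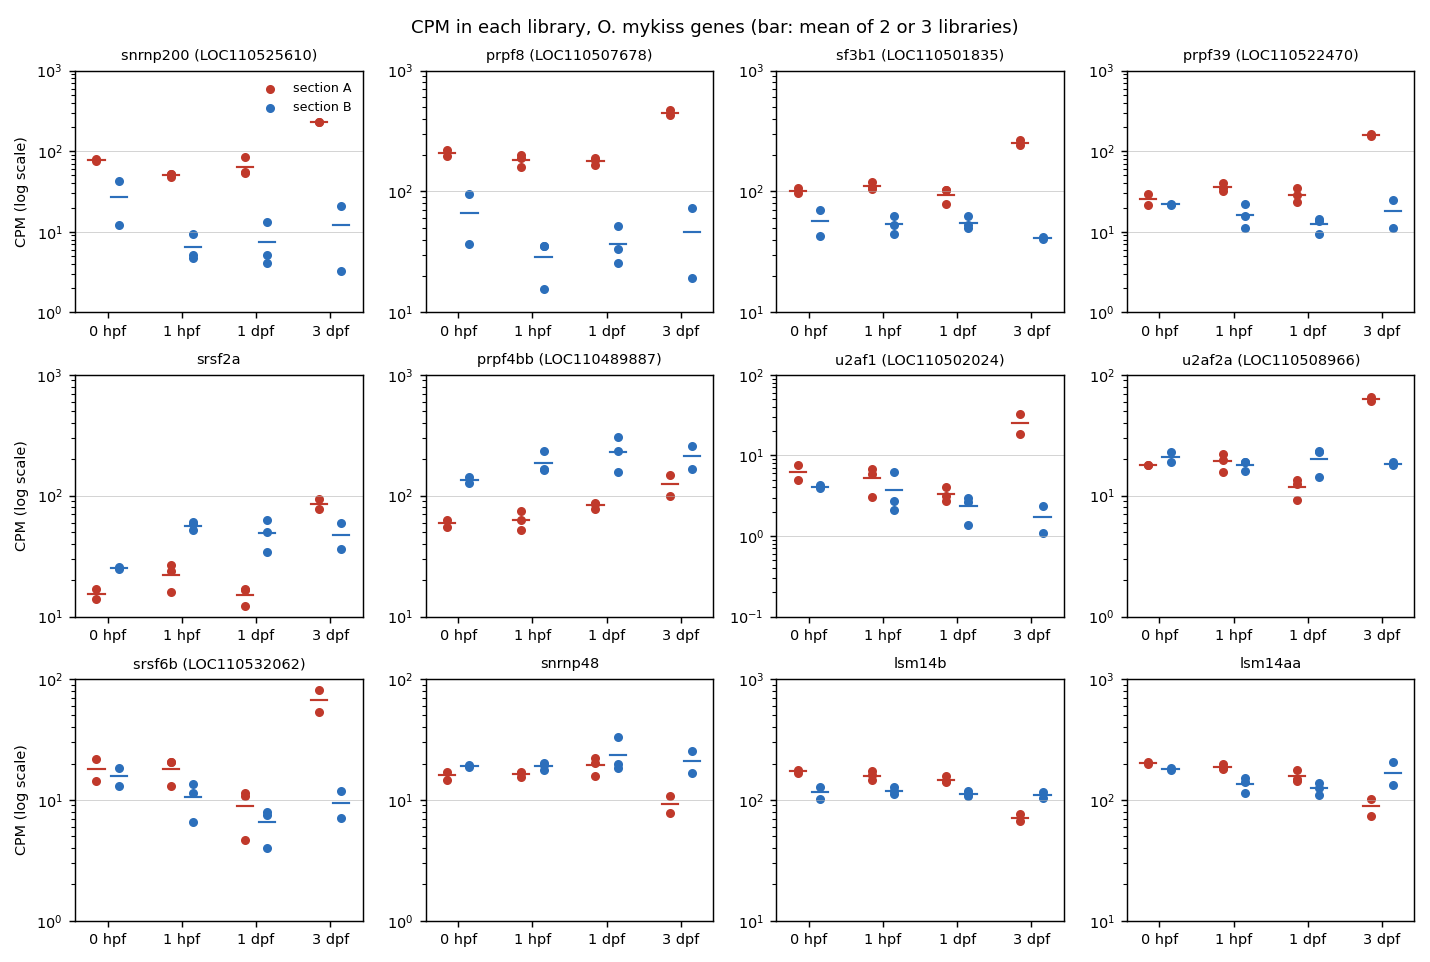
CPM on a log axis of 12 O. mykiss genes in each library by stage, section A in red left of section B in blue, with bars at the means. The genes snrnp200 and prpf8 have higher values in section A at every stage, though not called at 0 hpf, and u2af1 and srsf6b separate at 3 dpf. Both srsf2a and u2af2a lie lower in section A at 1 dpf and higher at 3 dpf. The genes snrnp48, lsm14b and lsm14aa are lower in section A at 3 dpf.

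Salmonid genomes carry many duplicated genes, and 34 O. mykiss symbols had at least 2 copies among the members (75 genes). How reads that match several copies were assigned is not given in the sources used here, so values of single copies are uncertain. Between 1 dpf and 3 dpf in section A all copies were called higher for 14 symbols, among them prpf8, snrnp200, sf3b1, prpf39, srsf2a, srsf5a and u2af2a, and all copies of 1 symbol, lsm14b, were lower. For 9 symbols some copies were called and others not, and for 9 none was. Copies of srsf7a were called in opposite directions, with 0.61 for LOC110533497 and -1.08 for LOC110503706. The call of LOC110533497 was lost without section A replicate 1 of 3 dpf (adjusted p = 0.4179) and without section A replicate 1 or 3 of 1 dpf (0.08486 and 0.0772). Across the sections at 3 dpf, copies of lsm14aa (LOC110506722 at 0.97, the other at -0.93) and of srsf11 (LOC110497920 at 0.89, the other at -0.62) were opposite. At 1 dpf this held for prpf4bb (-1.47 and LOC110535666 at 0.55) and for srsf2a, where LOC110538542 was called higher (0.55) and 2 other copies lower. The adjusted p of srsf11 (LOC110497920) was 0.1103 without section A replicate 1 and 0.2092 without section B replicate 2, and that of srsf2a (LOC110538542) at 1 dpf was 0.05206 to 0.1465 without section B replicate 1 or any 1 section A library. The matching counts over all duplicated O. mykiss symbols were not made, so these copy counts cannot be read as particular to the members. Differences between copies were not tested.

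The S. fontinalis members are the rows of the other parental genome. At 3 dpf 88 of 92 were called higher in section A than in section B (86.3% of all S. fontinalis genes were) and 88 were higher than in section A at 1 dpf (88.9%), shares near those of all S. fontinalis genes. All 92 had counts in section A at 3 dpf, and 33 to 52 had counts in the other libraries. Of the 92, 14 had 0 counts in every 0 hpf and 1 hpf library. In 11 of these the count was 0 in every library outside section A at 3 dpf, where they had 10 to 277 counts per library. Those 11 passed the filter on low counts only through section A at 3 dpf. A call of them as higher there was thus favoured by the filter and adds no support. Other members with few counts elsewhere can also have passed only there, and they were not counted. The 3 S. fontinalis LSm genes of U6, for example, together had at most 0.547 CPM in the other 18 libraries. Calls among the 88 were thus in part favoured by the filter. The 11 with no counts elsewhere include prpf39 (LOC129817222, 235 and 277 counts), srsf6a (LOC129830331, 235 and 92), snrpb2 (LOC129839849, 82 and 32) and sf3b4 (LOC129831100, 75 and 75). In section B at 3 dpf, 40 members had 0 counts in both libraries. Against the floor of 3 counts, srsf2a (LOC129825438) was at least 244-fold higher in section A, with 887 and 431 counts there. The gene prpf39 (LOC129817222), which is among those 11, was at least 97.3-fold higher.

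The 4 not called higher in section A than in section B at 3 dpf were srsf9 (LOC129814338), snrpa (LOC129821817), srsf10a (LOC129838140) and prpf19 (LOC129841343), with fold changes from 2.02 to 3.90. They had counts in some earlier libraries: srsf9 had 67 and 50 counts in section A at 3 dpf, against 23 and 0 in section B, and 11 to 28 counts in every 1 hpf library. Section differences were also called in S. fontinalis rows before 3 dpf. At 0 hpf 1 member was called higher in section A (0.0716% of all S. fontinalis genes were), snrnp200 (LOC129853511), with 13 and 12 counts in the section A libraries, against 2 counts in each section B library (2.48 ± 0.66, adjusted p = 0.04689). At 1 hpf 5 members were called higher in section A (2.11% of all S. fontinalis genes were) and 1 lower (1.97%), and at 1 dpf 5 were higher (3.2%) and 2 lower (2.49%). The 5 were the same at both stages, namely both snrnp200 rows, both prpf8 rows and sf3b1 (LOC129821129), and the lower rows were snrpb at both stages and srsf7a at 1 dpf. The row snrnp200 (LOC129853511) had 10, 15 and 13 counts in section A at 1 dpf and 0 in each section B library. The row prpf8 (LOC129832079) had 30, 29 and 49 counts in section A at 1 dpf, against 6, 7 and 4 in section B (2.42 ± 0.40, adjusted p = 0.0002451). All S. fontinalis rows together held 0.9868% to 1.06% of the counts already at 0 hpf. Over the 18 libraries outside section A at 3 dpf they held 0.927% to 1.08%. The source of S. fontinalis counts before 3 dpf was not tested, so the early values cannot be read as RNA of the paternal genome.

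In section A at 3 dpf, the S. fontinalis share of all member counts was 32.3% (32 to 32.6) and 31.3% (30.9 to 31.6), with 95% exact binomial intervals that cover counting error only. The share of all counts of the library was 24.03% and 22.45%. All counts come from 22773 O. mykiss and 9992 S. fontinalis genes, and the member counts from 103 and 92. The member share and the share of all counts thus rest on unlike gene numbers, and their difference cannot be read as particular to the members. In the other 18 libraries the member share was 0.857% to 1.71%, and that of all counts 0.927% to 1.08%. By role the share was highest in U2AF, with 58.4% (56.1 to 60.7) and 52.6% (49.7 to 55.6), followed by U2 with 35.8% and 36.4%. The SR proteins had 35.7% and 32%, and the U1 group 31% and 32.3%. The Sm core (21.7% and 21%) and the other LSm proteins (23% and 16.2%) had the lowest shares, and they also had fewer S. fontinalis than O. mykiss genes, 9 against 12 and 4 against 8. These shares were not corrected for gene length or for reads that fit both genomes.

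Some single symbols had a larger share before 3 dpf. In the 3 section A libraries of 1 dpf, the median over the 52 symbols with genes of both species was 0.233%, 0.343% and 0.222%, but u2af1 had 15.4%, 21.4% and 15.4% on 26 to 39 counts, prpf18, a factor of the second step, 13.5%, 10.9% and 13.2%, and sf3b1 11.4%, 7.71% and 10.6%. At 3 dpf u2af1 had 28% and 37.4%, prpf18 43.5% and 35.2%, and sf3b1 34.9% and 38.5%. The symbol u2af2a, which holds most U2AF counts, had 2.45% to 2.82% at 1 dpf.

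Over the 52 symbols at 3 dpf, the share ran from 11.5% to 70% in replicate 1 (median 31.5%) and from 4.43% to 73% in replicate 2 (median 28.6%). Where both species had the same number of genes (38 symbols) the medians were 30.9% and 30.5%. Above 50% in both libraries were 5 symbols, and for 3 of them the interval lay above 50% in both. These were snrpg, an Sm protein (62.1% and 73%), srsf6b (70% and 60.5%) and u2af2a (63.2% and 54.8%). Below 20% in both were lsm12b (14% and 4.43%), srsf9 (12.9% and 13.4%), srsf6a (14.4% and 14.1%), snrpa (18.9% and 18.5%), snrpb (18.5% and 19.9%) and prpf6 (14.5% and 16.7%). Yet prpf6, which bridges U5 to U4/U6, was called higher in its O. mykiss row, with 418 and 286 CPM in section A at 3 dpf against 116, 103 and 110.1 CPM at 1 dpf (1.69 ± 0.18, adjusted p = 1.719e-06). The share of srsf6a rests on 1 S. fontinalis row (LOC129830331) that carried 2 symbols, so this share is uncertain.

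**Figure D5:**
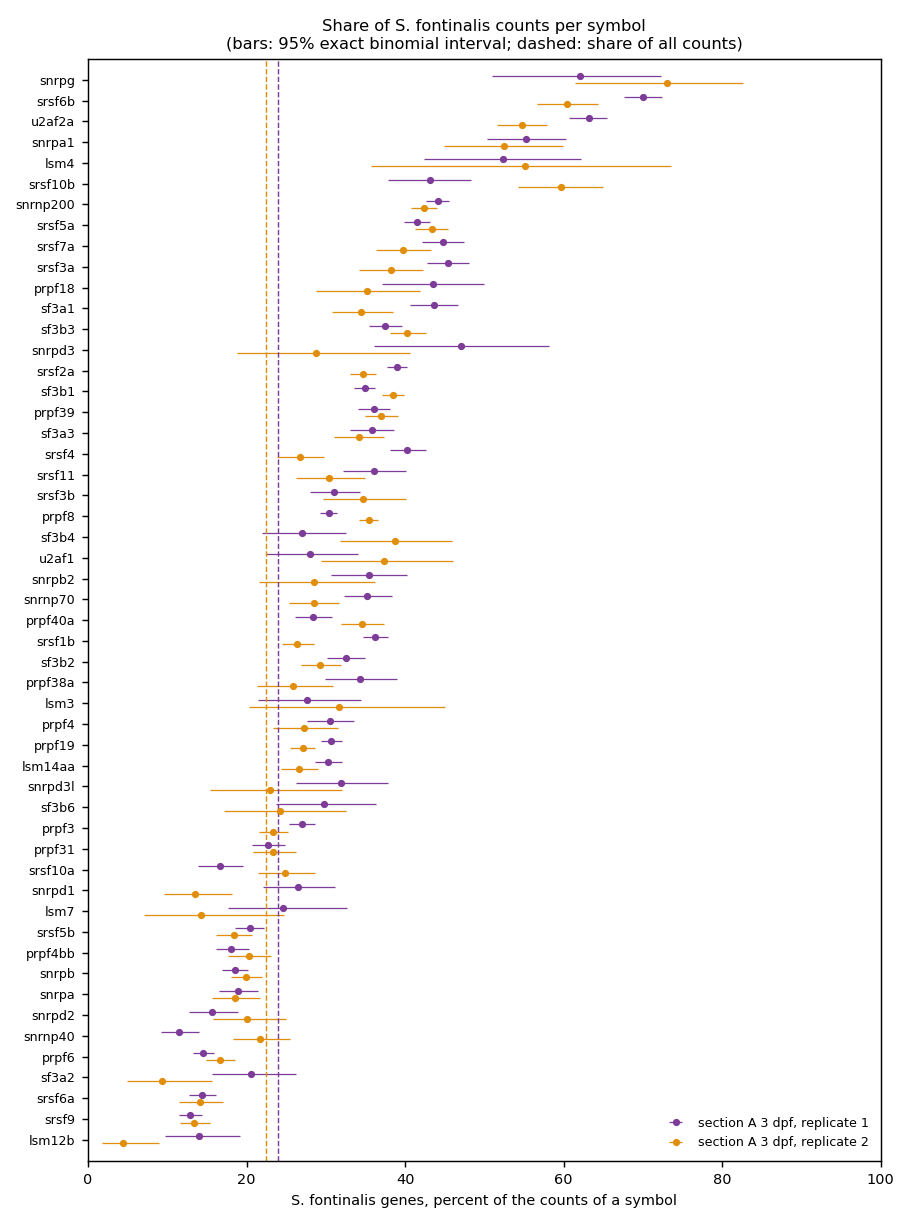
Share of S. fontinalis counts, in percent of the counts of both species, for each of 52 symbols in the 2 section A libraries of 3 dpf. Bars are 95% exact binomial intervals. Dashed lines mark the share of all counts (24.03% and 22.45%), which come from fewer S. fontinalis than O. mykiss genes. The symbols snrpg, srsf6b and u2af2a lie above 50% in both libraries with their intervals, and 6 symbols lie below 20% in both.

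Other splicing genes, from 9 lists outside the naming rule, were read in the same test, and a gene can belong to several of them. The shares of all O. mykiss genes in this comparison were 11.7% higher and 23.2% lower. Among regulators of alternative splicing 37 of 54 O. mykiss genes were called higher in section A at 3 dpf than at 1 dpf and 1 lower, and among hnRNP proteins, which coat pre-mRNA, 27 of 39 were higher and 0 lower. Splice site recognition factors had 17 of 33 higher and 0 lower, helicases and the spliceosomal GTPase 15 of 24 and 1, and the exon junction complex, which marks spliced exon joints, 12 of 17 and 1. Factors of the Prp19 complex, of the activated spliceosome and of the second step had 14 of 43 higher and 1 lower, and SR-related proteins with SR kinases 13 of 39 and 3. The machinery that assembles and imports snRNPs had 7 of 31 higher and 7 lower, a lower count close to the share of all genes. On the minor spliceosome list 3 of 9 genes were higher and 1 lower. All of the higher ones were copies of the helicase gene dhx15, so no other gene of that list was called higher. In section B the median change of the 9 lists over the same stages lay between -0.06 and 0.23.

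Some genes of these lists changed several-fold. The gene hnrnpl2 (LOC110503705), for an hnRNP protein, averaged 149 ± 27.5 CPM in section A at 3 dpf (SD, n = 2) and 4.26 ± 0.43 CPM at 1 dpf (SD, n = 3), and rose by 5.12 ± 0.30 (adjusted p = 2.64e-09). The gene ptbp2b (LOC110508848), for a polypyrimidine tract binding protein, averaged 21.65 ± 5.10 CPM and 1.73 ± 0.78 CPM in the same groups, and rose by 3.64 ± 0.52 (adjusted p = 2.468e-05). Lower were mbnl2 (LOC110501907), a muscleblind gene (-1.49 ± 0.24, adjusted p = 8.667e-05), clns1a (LOC110533474), a chaperone of Sm proteins (-1.26 ± 0.20, adjusted p = 8.713e-05), and upf3a (LOC110519965), a nonsense-mediated decay gene (-1.23 ± 0.20, adjusted p = 9.403e-05). These genes were chosen after their values were seen.

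Between the sections at 1 dpf, where 14.3% of all O. mykiss genes were higher in section A and 13.8% lower, some of these lists also leaned to the vegetal side. Of 39 hnRNP genes 17 were lower in section A than in section B and 1 higher, of 17 exon junction complex genes 10 were lower and 0 higher, and of 54 alternative splicing regulators 18 were lower and 2 higher. Helicases had 9 of 24 higher and 6 lower, SR-related proteins and kinases 11 of 39 and 4, and snRNP assembly genes 9 of 31 and 1. At 3 dpf, where the shares of all genes were 15.2% higher and 27.1% lower, the hnRNP list had 14 higher and 7 lower (a lower count not above that share), the exon junction complex 1 and 1, the alternative splicing regulators 23 and 12 and the helicases 16 and 2.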

How the data were processed

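Per the labels, ribosomal RNA was removed from total RNA before directional libraries were built. Of 24 libraries in the labels 20 were in the table. The remaining 4 (the third replicate of each section at 0 hpf and 3 dpf) were not analysed here. The deposited values are raw counts per gene, and the submitters' processing notes name HTSeq 2.0.4, STAR 2.7.11, fastp 0.23.4 and, with no version, DESeq2. The genome builds, the strand setting and the handling of reads that fit both genomes or several gene copies are not given in the sources used here.

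Symbols came from the identifiers (35 O. mykiss and 14 S. fontinalis members) or the authors' deposited ortholog table. There 68 O. mykiss and 36 S. fontinalis members were named in a row of their own genome, and 42 S. fontinalis members in a row of the other genome. The S. fontinalis members LOC129830331, LOC129848830 and LOC129863868 had 2 symbols each. The first that fit the naming rule was used (srsf6a, srsf3a and snrpd3). The members, role groups and lists were chosen with earlier results of these data known. Counts of all 20 libraries were fitted in 1 model, a mean per stage and section, with edgeR 4.0.16 (R 4.3.3), TMM factors, edgeR's expression filter, the quasi-likelihood test and Benjamini-Hochberg adjustment over 32502 genes. DESeq2 1.42.0 was an alternative, beside other scaling factors, no filter, a replicate block, the compared groups alone and leaving out each library. The fit was tested on simulated data.

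Genes were named by rule: per comparison up to 10 called genes per direction whose libraries do not overlap, called interactions, copies called in opposite directions, the most abundant gene of each role, small role groups, and S. fontinalis members without early counts or not called at 3 dpf. Symbols named for their parental share, prpf6 and other values outside the rule were chosen after seeing them. Replicates of a group differed by more than sampling noise (chi-square per degree of freedom 3.63 to 27.2). The labels number biological replicates and do not say whether the sections of a number come from 1 egg; p-values measure the spread among these samples. Sections with the same number deviated together at 1 hpf, 1 dpf and 3 dpf (correlations across genes of 0.246 to 0.642), but not at 0 hpf (-0.393). Sections with different numbers reached 0.499 at 1 hpf, so pairing is not settled by these values. At 0 hpf and 3 dpf, with 2 libraries per section, both same-number correlations are equal by construction. The main test used no pairing. The replicate block, an alternative run, took the numbers as pairs at every stage.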

Additional observations from a re-analysis of the deposited data

Results flagged for a closer look

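The change of the section difference between 1 dpf and 3 dpf, tested by an interaction term, picked out 14 O. mykiss genes. Toward the animal side it was 3.40 for u2af1, 2.56 for u2af2a (LOC110508966), 2.53 for srsf2a, 2.35 for srsf6b, 1.93 for prpf39 (LOC110522470), 1.83 for sf3b1 (LOC110501835), 1.82 for sf3b4, 1.80 for srsf2a (LOC110486583), 1.63 for sf3b1 (LOC110520240) and 1.62 for srsf6a on the log2 scale. Toward the vegetal side it was -1.25 for lsm14aa, -1.19 for srsf7a (LOC110503706), -1.02 for lsm14b and -0.77 for lsm14b (LOC110492393). These were the largest called, up to 10 in each direction. The adjusted p of srsf6b was 0.05747 without section A replicate 1 of 3 dpf and 0.05826 without section B replicate 1. That of sf3b4 was 0.07881 without section A replicate 1 and 0.07215 without section B replicate 2 of 3 dpf. For srsf7a (LOC110503706) it was 0.07678 with factors from O. mykiss genes alone, 0.08356 without section A replicate 1 and 0.1137 without section B replicate 1 of 3 dpf. For lsm14b (LOC110492393) it was 0.232 with factors from O. mykiss genes alone, 0.09011 with DESeq2, 0.18 without section A replicate 1, 0.05491 without section B replicate 1 and 0.07807 without section B replicate 2 of 3 dpf, and 0.06087 and 0.05793 without section A replicate 1 or section B replicate 3 of 1 dpf.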

How the results depend on the processing

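Scaling mattered most at 3 dpf, where 2 libraries per section limit precision, with at least 5011274 counts in each library. Over all O. mykiss genes 6161 were lower in section A than in section B at 3 dpf. That count was 4412 with RLE factors and 4176 with factors from O. mykiss genes alone. At 0 hpf 329 of all O. mykiss genes were higher in section A, against 1061 with DESeq2. Of 104 results for single genes none reversed in sign under any alternative run, but calls were lost. With the compared groups alone 18 were no longer called. The number was 7 with factors from O. mykiss genes alone, 6 with RLE factors and 4 with DESeq2. Further calls were lost when a library was left out. At 0 hpf 2 members were higher in section A, against 6 with DESeq2, 6 with the replicate block, 7 with the compared groups alone and 0 to 4 leaving out a library. There 2 were lower, against 4 with the compared groups alone and 0 to 2 leaving out a library. The same-numbered sections of 0 hpf deviated apart, and with those numbers crossed, an alternative chosen after seeing the data, 8 were higher and 5 lower. At 1 hpf the 10 lower became 18 with the replicate block and 4 to 11 leaving out a library, and the 18 higher 13 to 16. At 1 dpf the 24 lower became 11 to 25 and the 18 higher 12 to 19. At 3 dpf the 9 lower became 5 with RLE factors, 5 with factors from O. mykiss genes alone, 0 with the compared groups alone and 6 to 11 leaving out a library, and the 40 higher 27 to 43. In section A from 1 dpf to 3 dpf the 54 higher became 33 to 57 and the 5 lower 3 to 6. For the interaction the 29 higher became 48 with DESeq2 and 15 to 32 leaving out a library. The 4 lower became 2 with RLE factors, 2 with factors from O. mykiss genes alone, 2 with the compared groups alone and 2 to 5 leaving out a library. Of the comparisons without calls, section A at 1 hpf against 0 hpf had 1 with the compared groups alone, section B had 5 with DESeq2 and 2 with the compared groups alone, section A at 1 dpf against 1 hpf had 1 with DESeq2, and section B at 3 dpf against 1 dpf had 1 with DESeq2. The S. fontinalis counts of 88 and 88 became 50 and 50 when the 42 members named in the other genome's rows were left out, which are all 50 members that remain (also chosen after seeing the data), and 73 to 85 (section A against B) and 81 to 89 (3 dpf against 1 dpf) leaving out a library. The replicate block moved no other count by over 1.5 times. Where the cause of a change is not in the construction of the alternative, the cause was not tested.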
